A study of Homo sapiens with 27 samples.

Results

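Transcripts of 10 aldehyde dehydrogenase genes were compared across 9 established human cell lines. The genes were ALDH1A1, ALDH1A2, ALDH1A3, ALDH1B1, ALDH1L1, ALDH1L2, ALDH2, ALDH3A1, ALDH3A2 and ALDH3B1, chosen by symbol from 34584 genes in the tables. RNA was sequenced from 3 libraries per line, 27 in all, after poly-A selection. The labels give no treatment, and the lines come from tumours, apart from BJ, a dermal fibroblast line labelled epithelial. The skin lines SK-Mel 24 and SK-Mel 28 come from melanoma. A549 is a lung adenocarcinoma line, U251 a glioblastoma line (brain) and U2-OS an osteosarcoma line (bone). Caco2 is a colorectal adenocarcinoma line (colon), HepG2 a liver tumour line, while RT4, derived from a bladder tumour, carries the label kidney. A549 and BJ were grown in DMEM, RT4 and U2-OS in McCoy medium and the other 5 in EMEM. Serum was at 15% for SK-Mel 24 and at 10% for the rest. For lines grown in different media or serum, line and medium cannot be told apart. Each tissue is represented by 1 line, apart from skin. The design calls the libraries of a line biological replicates, with no word on how separate their cultures were, so the p-values speak only of the spread among these libraries.

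Aldehyde dehydrogenases oxidise aldehydes to carboxylic acids with NAD or NADP as the electron acceptor. The ALDH1A enzymes convert retinaldehyde to retinoic acid, the ligand of the retinoic acid receptors, and ALDH1A activity is a widely used label of stem-like cells. ALDH2 and ALDH1B1 work in mitochondria, where ALDH2 is the main enzyme of acetaldehyde removal after ethanol. ALDH1L1 (cytosol) and ALDH1L2 (mitochondria) are folate enzymes that oxidise 10-formyltetrahydrofolate to carbon dioxide and tetrahydrofolate. ALDH3A1 acts on aldehydes from lipid peroxidation, ALDH3A2 on long-chain fatty aldehydes, and ALDH3B1 on aldehydes from lipids. Loss of ALDH3A2 causes Sjögren-Larsson syndrome.

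Libraries held 15597117 to 32583547 estimated counts, and the 27 pairs of libraries from the same line all differed by more than sampling noise. In HepG2, mitochondrially encoded genes held 71.1%, 33.8% and 32.6% of all counts, while their share was 0.93% to 5.72% in the 24 remaining libraries. This share lowers every other TPM value (a transcript level scaled to transcript length and to a fixed library total) in HepG2, replicate 1 most. Tissue labels were checked with marker genes. The melanocyte genes PMEL, MLANA and TYR were at 3.10, 1.08 and 0.33 TPM in SK-Mel 24, although SOX10 was at 252 and S100B at 7822. The lung markers NKX2-1, SFTPB, SFTPC and SCGB1A1 reached at most 0.42 TPM in A549, the bone factor SP7 was at 0.02 in U2-OS and the glial factor OLIG2 at 0.01 in U251. In RT4 the kidney tubule markers UMOD, CDH16 and SLC12A1 were listed at 0 and LRP2 was at 0.006 TPM, while the urothelial UPK2 was at 163. BJ had 2877 TPM of COL1A1. Of the epithelial markers it had 0.67 of EPCAM and 0.36 of CDH1, but 34.0 of KRT8 and 750 of KRT18.

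All 10 genes differed among the 9 lines (edgeR quasi-likelihood F test, Benjamini-Hochberg adjusted), as did 98.3% of 17220 tested genes. Of the 10, 5 were enriched in a single line, that is, at least 4-fold above the next line with all 8 one-sided tests passed, against 14.7% of tested genes. ALDH1A1, ALDH3A1 and ALDH3B1 were enriched in A549, and ALDH1A2 and ALDH1L1 in RT4. Over the 36 pairs of lines, 285 of 360 gene and pair combinations passed, with 58.9% of all tested combinations as the background. ALDH1A3 separated the most pairs (35 of 36) and ALDH1A2 the fewest (17). Of the 270 library values, 7 were listed at 0 TPM.

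**Figure D1:**
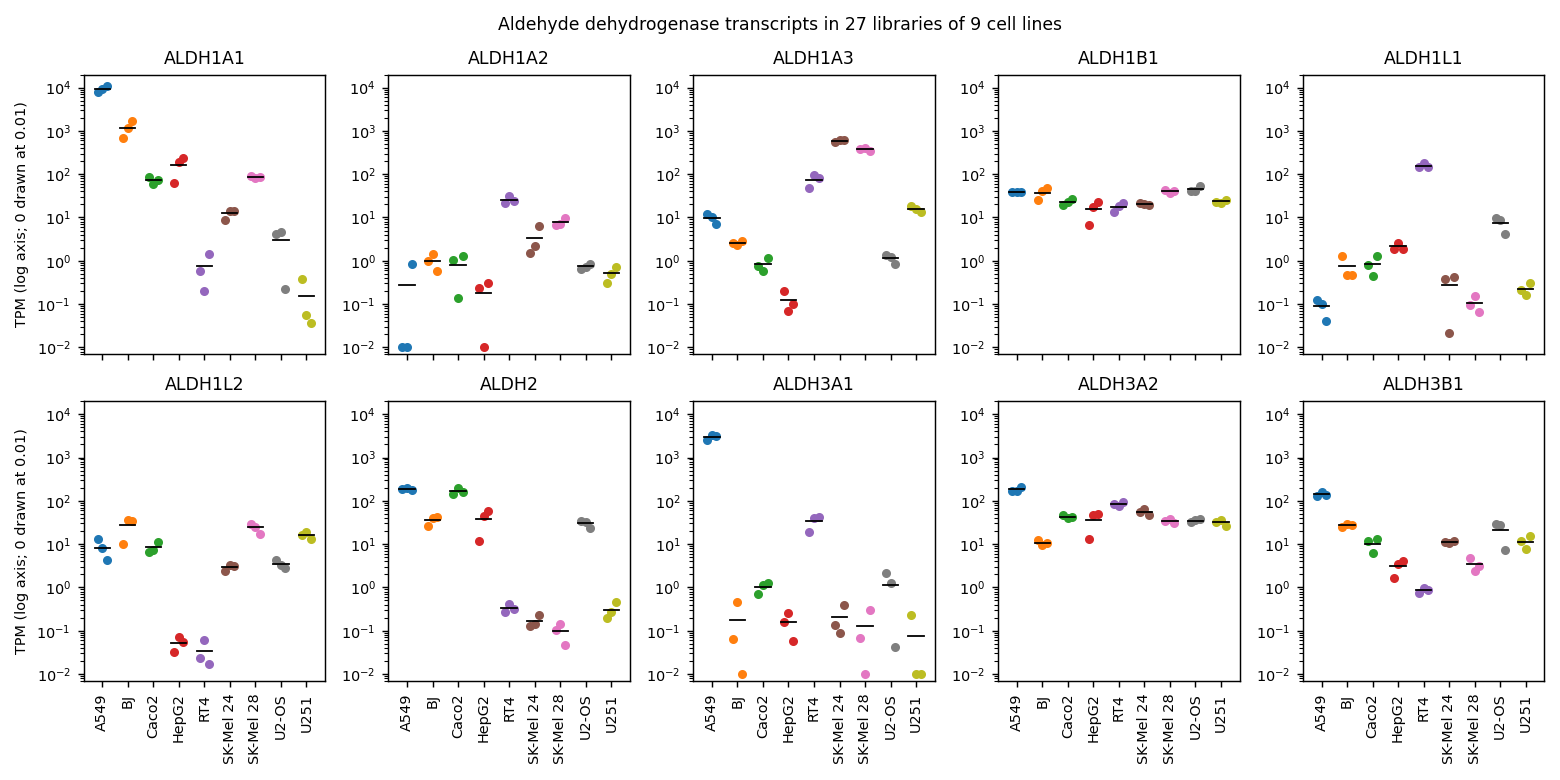
TPM of each of the 10 genes in each library (points, log axis, 0 drawn at 0.01), with the line mean as a black bar, by cell line. ALDH1B1 and ALDH3A2 stayed above 10 TPM in all 9 line means, while the line means of ALDH1A1 ran from 0.16 TPM in U251 to 9390 in A549.

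Each line was set against the mean of the other 8 on the log2 scale, with a call at an adjusted p under 0.05 and a log2 fold change of at least 1 in size. In A549, 6 of the 10 genes were higher and 2 lower, where 18.4% and 10.8% of all tested genes were called higher and lower. BJ had 4 higher and 3 lower (20.1% and 13.1% of all genes). Caco2 had 3 higher and 1 lower (19.8% and 13.9%), and HepG2 4 higher and 2 lower (25.8% and 23.5%). RT4 had the fewest uncalled genes, with 5 higher and 4 lower (18.6% and 14.2%). SK-Mel 24 had 1 higher and 4 lower (19% and 11.2%), and SK-Mel 28 had 4 of each (20.3% and 13.4%). In U2-OS 2 were higher and 2 lower (25.3% and 10.9%), and in U251 1 was higher and 4 lower (15% and 11.6%). The median log2 fold change of the 10 genes was highest in A549 (1.95, with 0.03 over all tested genes) and lowest in U251 (-1.10, with -0.02 over all). The contrast averages logarithms, so lines with very few counts lower the mean of the others, and modest levels can then pass as higher.

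**Figure D2:**
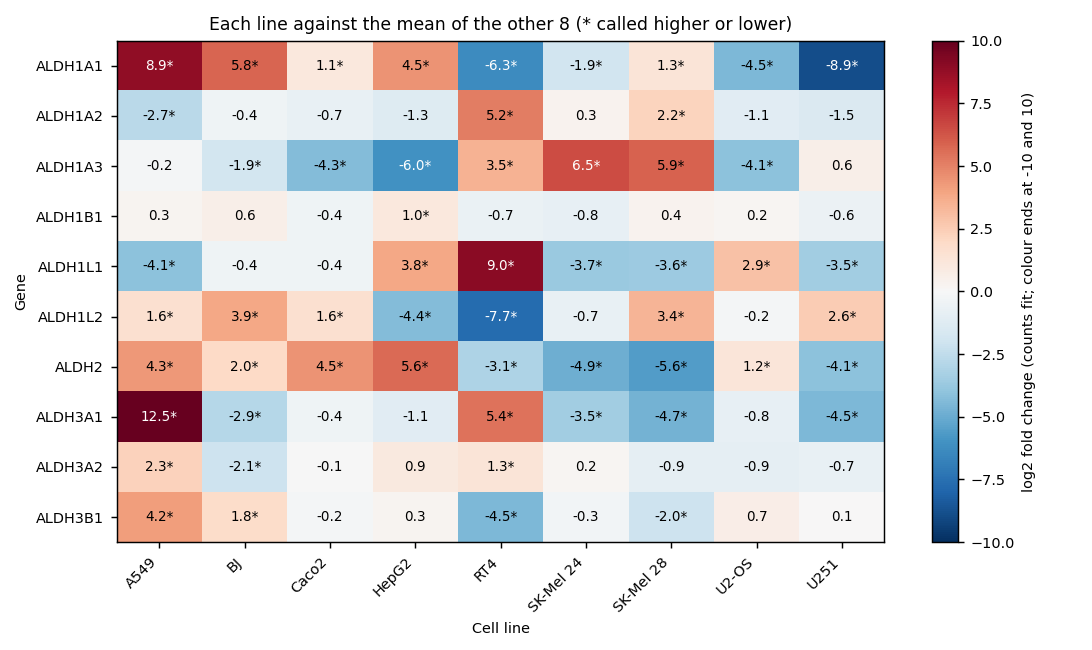
Log2 fold change of each gene (rows) in each line (columns) against the mean of the other 8 lines, from the fit of counts, with an asterisk where the gene was called higher or lower. The A549 column holds the largest positive value, 12.50 for ALDH3A1.

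The lines also differed in which of the 10 genes dominated, a comparison that is possible on TPM because it is scaled to length. The summed TPM was 11106, 13142 and 14705 in the A549 libraries, 783, 1309 and 1815 in BJ, and 103, 101 and 94.7 in U251. A549 was above every library of the other lines, and U251 below every library of the other lines except HepG2 replicate 1 at 97.7. ALDH1A1 made up 88.4% ± 2.1 (SD, n = 3, as for all line values below) of the sum in BJ, 72.2% ± 2.6 in A549 and 63.0% ± 0.7 in HepG2. ALDH1A3 made up 84.7% in SK-Mel 24 and 65.7% in SK-Mel 28. ALDH2 led in Caco2 with 50.9%, ALDH1L1 in RT4 with 39.9%, ALDH1B1 in U2-OS with 30.8% and ALDH3A2 in U251 with 31.8%. ALDH1A1 led in 3 lines, ALDH1A3 in both SK-Mel lines and a different gene in each of the other 4.

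**Figure D3:**
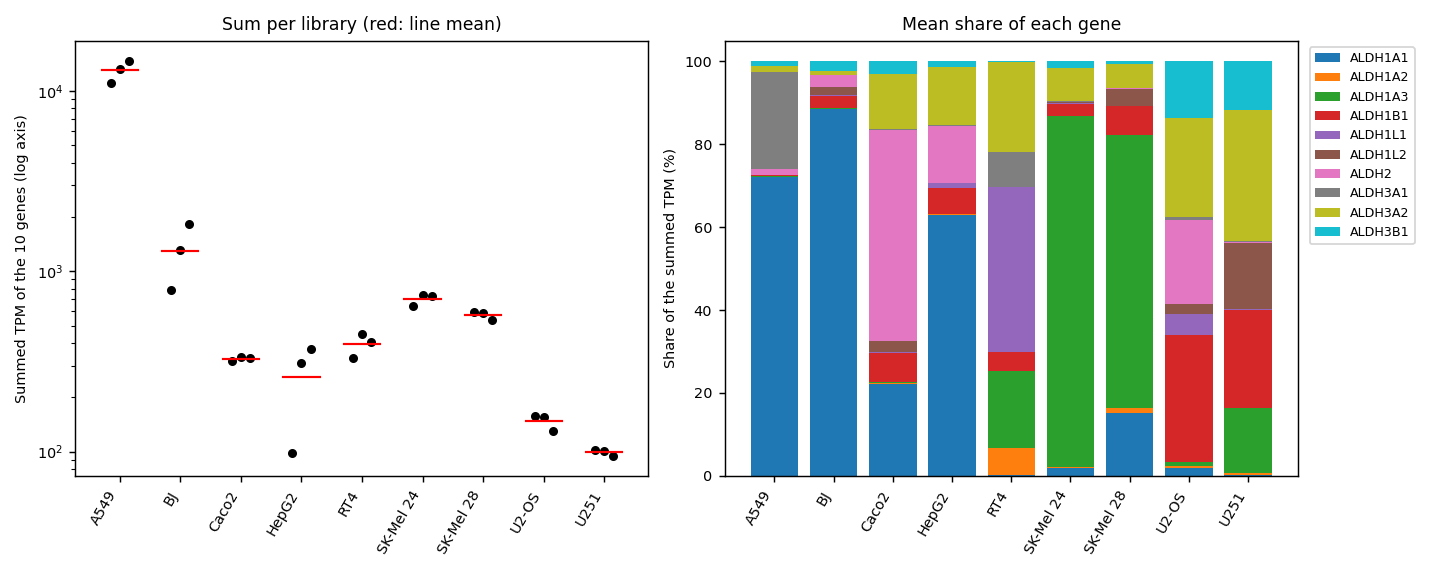
Left, summed TPM of the 10 genes per library (points, log axis) with line means in red; right, mean share of each gene in that sum, in percent, by line. ALDH1A1 fills most of the A549, BJ and HepG2 bars and ALDH1A3 most of both SK-Mel bars, and the largest shares in U2-OS and U251 are 30.8% and 31.8%.

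The retinaldehyde dehydrogenases were each highest in a different line. ALDH1A1 (chromosome 9, 72900662 to 73080442, minus strand, GRCh38) was at 7999, 9162 and 11009 TPM in the A549 libraries and at 679, 1148 and 1649 in BJ. HepG2 followed with 62.3, 192 and 232 TPM, then SK-Mel 28 with 88.8, 82.9 and 87.4. The A549 and BJ libraries did not overlap with each other or with any other line. HepG2 overlapped with SK-Mel 28 and Caco2 through replicate 1. With TPM rescaled without mitochondrially encoded genes these overlaps were gone. HepG2 then had 296, 334 and 398 TPM, SK-Mel 28 had 94, 90 and 92, and Caco2 had 88.7, 64.0 and 74.2. A549 exceeded BJ by 2.73 ± 0.56 (SE) on the log2 scale of the count fit (adjusted p = 0.000184). The order then ran through Caco2 (72.4 ± 12.5 TPM), SK-Mel 24 (12.5 ± 3.1), U2-OS (3.01 ± 2.42), RT4 (0.75 ± 0.64) and U251 (0.16 ± 0.19). Of the 8 neighbouring pairs in the fitted order, BJ with HepG2 (1.17 ± 0.53, adjusted p = 0.0626) and SK-Mel 28 with Caco2 (0.18 ± 0.53, adjusted p = 0.808) did not pass. The higher call of ALDH1A1 in Caco2 (1.09 ± 0.38, adjusted p = 0.0154) missed the threshold without Caco2 replicate 1 (adjusted p = 0.0669). The 3 U2-OS libraries stood apart from each other, at 4.27, 4.54 and 0.23 TPM, with replicate 3 the low one.

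Nearly all ALDH1A1 signal in these lines came from 1 coding transcript of 2107 bases, which held 98.3% ± 1.6 of the gene's TPM in A549 and 96.4% ± 5.1 in BJ. None of its 31-base words occurs in a transcript of another gene of GENCODE 29.

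ALDH1A3 (chromosome 15, 100877714 to 100916626, plus strand) was the leading member of both melanoma lines. SK-Mel 24 libraries had 540, 626 and 624 TPM, and those of SK-Mel 28 had 389, 397 and 345. RT4 followed with 48.6, 95.4 and 80.6 TPM and U251 with 18.0, 15.5 and 13.6. Every SK-Mel library lay above every library of the other 7 lines, and the SK-Mel lines did not overlap with each other. SK-Mel 24 exceeded SK-Mel 28 by 0.58 ± 0.20 on the log2 scale (adjusted p = 0.0165). That pair missed the threshold without SK-Mel 24 replicate 3 (0.52, adjusted p = 0.0541) or without SK-Mel 28 replicate 3 (0.52, adjusted p = 0.0626). The remaining line means were 9.85 in A549, 2.56 in BJ, 1.13 in U2-OS, 0.82 in Caco2 and 0.12 in HepG2, and only U2-OS and Caco2 did not differ as neighbours. Of the 31-base words of its leading transcript, 43.5% also occur in AC015712.2, an overlapping antisense gene that was not analysed here, and the strand setting of the counting is not given, so reads of the pair may not be separable.

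ALDH1A2 (chromosome 15, 57953424 to 58497866, minus strand) was at 21.7, 31.2 and 23.7 TPM in RT4, 6.79, 6.93 and 9.82 in SK-Mel 28, and 1.52, 2.23 and 6.45 in SK-Mel 24. RT4 did not overlap with any other line and exceeded SK-Mel 28 by 2.61 ± 0.58 on the log2 scale (adjusted p = 0.00043). In the other 6 lines the mean was at most 1.00 TPM, and 2 of the A549 libraries and 1 HepG2 library were listed at 0. In RT4 and both SK-Mel lines most of this signal was not from coding transcripts. In U2-OS 75.5% ± 18.4 was, but of only 0.74 ± 0.11 TPM and 23 counts over 3 libraries. Coding transcripts in U2-OS summed to 0.57 ± 0.17 TPM. The tables list 25 ALDH1A2 transcripts, of which 8, all annotated as non-coding, lie wholly upstream of position 58066418, the start of a main coding transcript. Those 8 span 58107417 to 58497866 and held 84.1% ± 5.9 of the ALDH1A2 TPM in RT4, 94.2% ± 3.1 in SK-Mel 28 and 89.5% ± 8.6 in SK-Mel 24. Coding transcripts summed to 2.80 ± 1.08 TPM in RT4 and 0.23 ± 0.18 in SK-Mel 28. The most abundant in RT4 were processed transcripts, a short one (6.77 ± 0.98 TPM, 58241900 to 58246265) and one of 394 bases (5.69 ± 1.08 TPM, 58257448 to 58331464). The start of the first of these lies 180554 bases from the RefSeq start of ALDH1A2 used here. With coding transcripts alone, RT4 remained the highest line by 4.17 ± 1.04 (adjusted p = 0.00166), and the higher call in SK-Mel 28 was lost (1.90, adjusted p = 0.0764). The genes AQP9 and LIPC overlap this stretch on the opposite strand and were at 0.09 and 1.96 TPM in RT4. LIPC-AS1 (58434890 to 58498735) overlaps it on the same strand and was not analysed here.

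**Figure D4:**
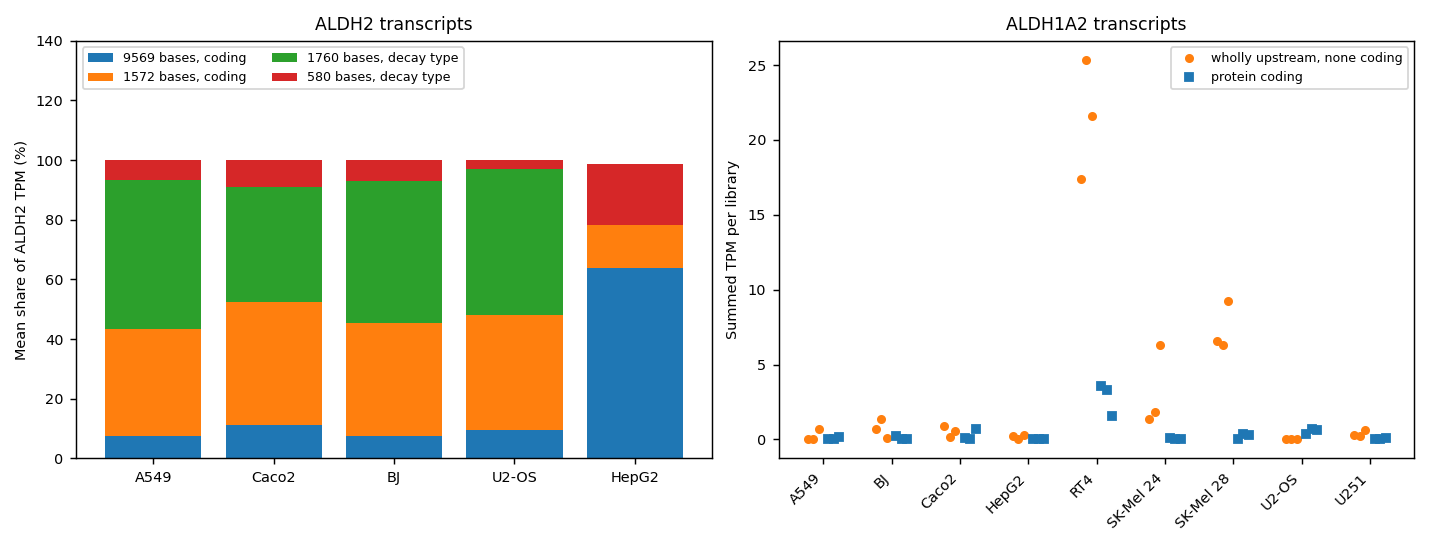
Left, mean share of ALDH2 TPM held by each ALDH2 transcript, named by its length (those at 0.5 TPM or more) in the 5 lines that express the gene, in percent. Right, summed TPM per library of ALDH1A2 transcripts that lie wholly upstream of that coding transcript (circles) and of its coding transcripts (squares), by line; in RT4 the upstream sums average 21.4 TPM and the coding sums 2.80.

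Of the 23 other retinoid genes on a list of carriers, dehydrogenases, receptors and targets, 12 were higher and 3 lower in A549 (18.4% and 10.8% of all tested genes), with a median log2 fold change of 1.12 against 0.03 for all tested genes. RARRES1, a retinoic acid responsive gene, was at 36.1 ± 20.1 TPM in A549 (log2 fold change 7.06 ± 0.28), and BCO1, which cleaves carotene to retinaldehyde, at 5.38 ± 2.01 (6.83 ± 0.41). The retinoic acid binding protein CRABP1 was called higher there at 1.34 TPM (4.07), below its mean of 10.0 TPM over the other lines. RXRB was lower (-3.71), although it lies in the MHC region, whose alternate copies can share reads. In SK-Mel 24, 10 of the 23 were higher and 5 lower (median 0.55, with 19% and 11.2% of all tested genes called). LRAT, which esterifies retinol for storage, was at 29.8 ± 7.3 TPM (6.30 ± 0.26) and the receptor RXRG at 18.8 ± 5.1 (9.42 ± 0.26). The retinol carrier RBP4 was lower (0.15 ± 0.26 TPM, -5.19 ± 0.75). In RT4, 8 were higher and 6 lower, where 18.6% and 14.2% of all tested genes were called (median 0.36, with -0.03 over all genes), with RXRB at 8.94 ± 1.62 TPM (4.65 ± 0.18), RARRES1 at 8.73 ± 2.74 (5.16 ± 0.32) and CRABP1 at 1.61 ± 0.16 (4.74 ± 0.41) among the higher. The crosslinking enzyme TGM2, another retinoic acid target, was at 0.14 ± 0.03 TPM in RT4 against a mean of 98.9 in the other lines (-8.99 ± 0.53).

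ALDH2 (chromosome 12, 111766887 to 111817529, plus strand) split the lines into 5 that expressed it and 4 in which it was nearly absent. It was at 183, 194 and 182 TPM in A549 and 146, 194 and 162 in Caco2, and at 26.4, 40.1 and 41.6 in BJ. HepG2 had 11.5, 43.5 and 58.9 TPM and U2-OS 34.2, 32.5 and 23.4. In RT4, U251, SK-Mel 24 and SK-Mel 28 the means were 0.34, 0.31, 0.17 and 0.10 TPM, and the highest of these 12 libraries had 0.45. All 4 were called lower than the mean of the others, with log2 fold changes from -5.62 in SK-Mel 28 to -3.09 in RT4, and the 5 others higher. The call in U2-OS was lost with coding transcripts alone (0.84 instead of 1.23). In the fitted order the sets were separated by the gap of U2-OS over RT4, 3.84 ± 0.25 (adjusted p = 2.225e-12). In the count fit the next neighbours RT4 and U251 differed (0.90 ± 0.26, adjusted p = 0.00441), although their TPM ranges overlapped, whereas Caco2 and A549 did not (0.13 ± 0.21, adjusted p = 0.616).

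The position of HepG2 among the ALDH2 expressing lines depended on the scale. The deposited TPM put HepG2 (38.0 ± 24.2) at rank 3, and TPM rescaled without mitochondrially encoded genes also put it at rank 3 (77.1 ± 23.2). The count fit put HepG2 first, 1.04 ± 0.21 above Caco2 on the log2 scale (adjusted p = 0.000175). With an offset for the mean transcript length of the gene in each library, HepG2 was at rank 3 again and the difference from Caco2 turned to -0.46 (adjusted p = 0.177). The make-up by transcript also differed, a description chosen after the values were seen, whose part in the result was not tested. In HepG2, 63.9% ± 13.4 of ALDH2 TPM was on the 9569-base coding transcript, which held 7.47% ± 1.3 in A549, 11.0% ± 3.5 in Caco2, 7.59% ± 1.58 in BJ and 9.51% ± 1.84 in U2-OS. Those 4 lines instead had the 1572-base coding transcript (36.1% to 41.6%) and the 1760-base transcript (38.4% to 49.9%), which is annotated as a target of nonsense-mediated decay. In TPM, the 9569-base transcript was at 22.1 ± 11.6 in HepG2, 18.1 ± 4.4 in Caco2 and 13.9 ± 2.1 in A549. Of the 31-base words of the 1760-base transcript, 37.6% also occur in AC002996.1, a gene annotated on the same strand, which was at 0.64 TPM or less in every line mean.

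**Figure D5:**
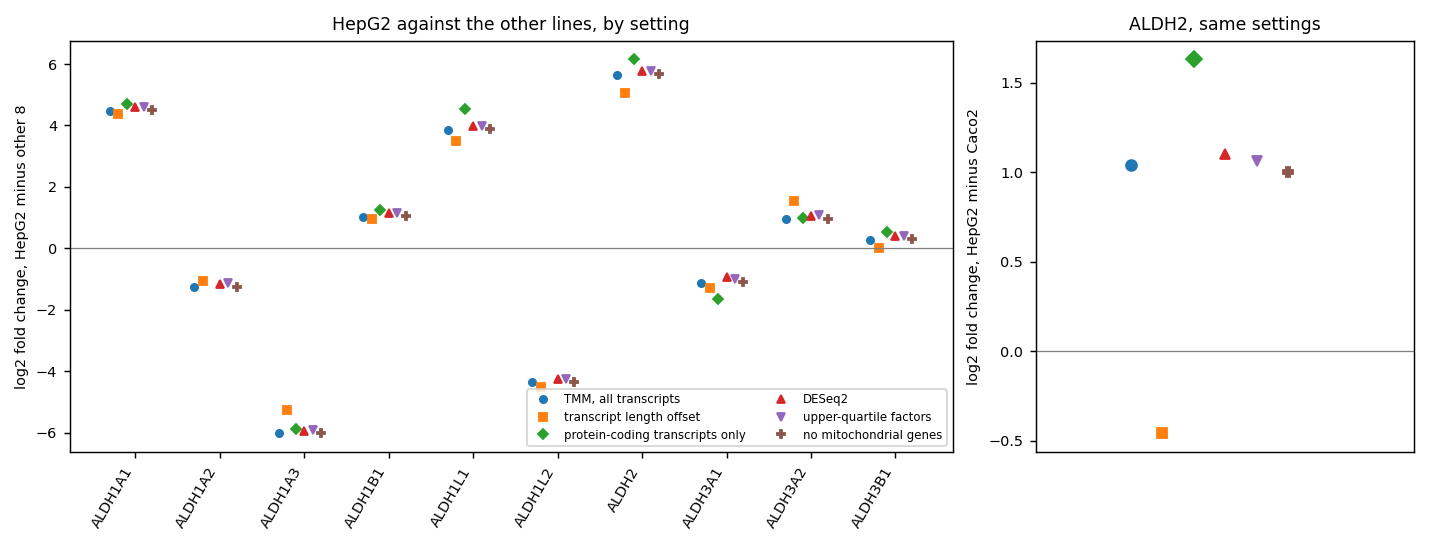
Left, log2 fold change of each gene in HepG2 against the mean of the other 8 lines under 6 settings of the count fit (symbols); the coding-only values of ALDH1A2 and ALDH1L2, which have no coding reads in HepG2, are left out. Right, the ALDH2 difference between HepG2 and Caco2 under the same settings, which is -0.46 with the transcript length offset and between 1.00 and 1.63 under the other 5.

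ALDH1B1 (chromosome 9, 38392664 to 38398661, plus strand), the other mitochondrial acetaldehyde enzyme, was the most even of the 10. Its line means ran from 15.6 ± 8.1 TPM in HepG2 to 44.6 ± 6.6 in U2-OS, a 2.9-fold range. The lowest library was HepG2 replicate 1 (6.75 TPM) and the highest U2-OS replicate 3 (52.3 TPM). When TPM was rescaled without mitochondrially encoded genes, HepG2 was at 33.7 ± 4.3 (rank 5) and replicate 1 at 32.1. RT4 was then lowest at 19.3 ± 4.5. The count fit ordered HepG2 first, and HepG2 was the only line called higher (1.03 ± 0.14, adjusted p = 5.472e-07). That call sits at the fold threshold. It was lost with no low-count filter (0.97), with the length offset (0.96), with the number in the sample titles as a covariate (0.92), and without HepG2 replicate 3 (0.90), BJ replicate 1 (0.99) or Caco2 replicate 1 (just under the threshold). Of the 8 neighbouring pairs, 1 passed, U2-OS over Caco2 (0.59 ± 0.21, adjusted p = 0.0167). The difference of HepG2 over BJ did not pass (0.41 ± 0.21, adjusted p = 0.0943).

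Of 13 tested genes on a list of 16 other alcohol and aldehyde oxidoreductases, 5 were higher and 2 lower in A549 (median 0.41, with 18.4% and 10.8% of all tested genes called). The aldo-keto reductase AKR1B10 reached 5508 TPM there and 38.0 ± 23.8 in HepG2, where it was also higher (5.07 ± 0.29); close relatives can share its reads. AKR1B1, a related reductase, was at 1389 ± 332 TPM in A549 (2.68 ± 0.15). In HepG2, 4 of the 13 were higher and 2 lower (median 0.67, with -0.17 over all genes), counts near the shares of all tested genes called there, 25.8% and 23.5%. Among them the alcohol dehydrogenases ADH6 (39.2 ± 10.0 TPM, 9.54 ± 0.27) and ADH4 (9.96 ± 5.69 TPM, 7.85 ± 0.29) were higher, and the carbonyl reductase CBR3 was lower at 0.02 ± 0.02 TPM (-6.52 ± 0.44).

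The cytosolic and mitochondrial folate enzymes differed in where they were found. ALDH1L1 (chromosome 3, 126103562 to 126197994, minus strand) was at 143, 183 and 143 TPM in RT4, while U2-OS had 9.77, 8.68 and 4.25 and HepG2 1.92, 2.62 and 1.91. The other 6 line means were between 0.09 (A549) and 0.85 TPM (Caco2). RT4 did not overlap with any line. The count fit placed HepG2 second, 4.58 ± 0.35 below RT4 (adjusted p = 4.323e-11) and 0.83 ± 0.31 above U2-OS (adjusted p = 0.0264), whereas U2-OS had the higher TPM both as deposited and without mitochondrially encoded genes (HepG2 5.65 ± 3.08). In RT4, 96.3% ± 0.3 of the TPM was on coding transcripts, led by those of 3277 bases (54.5 ± 31.1 TPM) and 2758 bases (44.3 ± 12.6). Neither led in U2-OS, where coding transcripts of 3157 bases (35.5% ± 1.6) and 583 bases (34.9% ± 1.4) held most.

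ALDH1L2 (chromosome 12, 105019784 to 105084577, minus strand) was at 10.2, 36.2 and 35.1 TPM in BJ, 29.8, 25.5 and 17.5 in SK-Mel 28 and 16.2, 18.6 and 12.9 in U251. These 3 lines overlapped, and neighbours among them did not differ (BJ over SK-Mel 28 0.45 ± 0.38, adjusted p = 0.328). Without BJ replicate 1, the low library, BJ exceeded SK-Mel 28 by 0.85 (adjusted p = 0.0362). Caco2 (8.41 ± 2.65) and A549 (8.35 ± 4.30) came next, then U2-OS (3.48 ± 0.76) and SK-Mel 24 (2.94 ± 0.46). RT4 and HepG2 had at most 0.07 TPM in any library, and both were called lower (-7.71 ± 0.60 and -4.37 ± 0.49). In both of these lines ALDH1L1 was called higher (8.99 ± 0.19 in RT4 and 3.84 ± 0.23 in HepG2), and in A549, SK-Mel 28 and U251, where ALDH1L2 was higher, ALDH1L1 was lower. ALDH1L2 was also higher in BJ and Caco2, where ALDH1L1 was not called. SK-Mel 24 did not follow this alternation, with ALDH1L1 at 0.27 ± 0.22 TPM and ALDH1L2 not called higher (-0.74). There ALDH1L2 was called lower when HepG2 was left out (-1.31, adjusted p = 0.00481). Over the 9 line means the Pearson correlation of the pair on log2(TPM + 1) was -0.68, given as a description, since the means share libraries. Both were present in U2-OS, which had 7.56 ± 2.92 TPM of ALDH1L1 and 3.48 of ALDH1L2.

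Of 21 other folate and one-carbon genes, in RT4 1 was higher and 2 lower (18.6% and 14.2% of all tested genes), with a median log2 fold change of -0.16. These were MTHFS, which returns 5-formyl folate to the pool (71.6 ± 16.1 TPM, 1.05 ± 0.17), DHFR2 (0.93 ± 0.01 TPM, -1.74 ± 0.18) and the glycine cleavage enzyme GLDC (1.34 ± 0.38 TPM, -1.14 ± 0.21). In BJ, 1 was higher and 6 lower (median -0.42, with -0.05 over all genes), where 20.1% and 13.1% of all tested genes were called. The folate carrier SLC19A1 was higher at 67.1 ± 7.0 TPM (1.67 ± 0.18). GLDC (0.10 ± 0.06 TPM, -7.14 ± 0.37), SHMT1 (4.47 ± 3.06, -3.30 ± 0.25) and MTHFD1 (41.4 ± 27.0, -1.45 ± 0.21) were lower.

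ALDH3A1, ALDH3A2 and ALDH3B1 all had their highest level in A549. ALDH3A1 (chromosome 17, 19737984 to 19748943, minus strand) was at 2568, 3399 and 3118 TPM there and at 19.5, 40.2 and 41.7 in RT4. The next values were 2.17, 1.24 and 0.04 in U2-OS and 0.71, 1.15 and 1.28 in Caco2. A549 and RT4 overlapped with no other line, and A549 exceeded RT4 by 6.27 ± 0.61 on the log2 scale (adjusted p = 2.935e-09). The other 5 lines had 0.21 TPM or less on average, and their neighbours in order did not differ. SK-Mel 28 and U251 rested on 5 and 6 counts over 3 libraries, so their fitted values (-4.71 ± 0.92 and -4.50 ± 0.90) carry wide errors. In A549 86.3% ± 0.8 of the TPM was on coding transcripts, with 62.4% ± 3.4 on a transcript of 1572 bases, which also led in RT4 (62.0% ± 4.5).

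ALDH3A2 (chromosome 17, 19648136 to 19677598, plus strand), the fatty aldehyde dehydrogenase, was present in every library. It was at 166, 171 and 210.97 TPM in A549, 82.4, 76.6 and 92.9 in RT4, and 12.1, 9.47 and 10.7 in BJ. A549 was above and BJ below every library of the other lines, with HepG2 replicate 1 (12.9 TPM) the next above BJ. A549 exceeded RT4 by 0.90 ± 0.16 (adjusted p = 3.084e-05), and BJ lay 1.05 ± 0.16 under the next lowest line, U2-OS (adjusted p = 4.773e-06). In the other 6 lines the means of the deposited TPM ran from 31.7 (U251) to 56.6 (SK-Mel 24). With TPM rescaled without mitochondrially encoded genes, HepG2 replicate 1 was at 61.6 and the HepG2 mean at 76.5 ± 13.0 (rank 3). A smaller share of this gene's TPM was on coding transcripts than for ALDH3B1, 35.8% ± 7.5 in HepG2 and 77.5% ± 1.9 in A549 being the extremes. In HepG2 the leading transcript was a 572-base one, annotated as a decay target (17.3 ± 12.5 TPM), with 2.93 TPM in replicate 1. The HepG2 call followed the scale, none in the count fit (0.95 ± 0.11) and higher with the length offset (1.53), DESeq2 (1.06) or upper-quartile factors (1.08). With the length offset, HepG2 instead of RT4 was the line next to A549, which exceeded it by 0.48 ± 0.17 (adjusted p = 0.0212).

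ALDH3B1 (chromosome 11, 68008578 to 68029282, plus strand) was at 127, 160 and 134.7 TPM in A549, 25.0, 29.8 and 27.8 in BJ, and 28.6, 27.0 and 7.34 in U2-OS. A549 exceeded BJ by 2.07 ± 0.32 (adjusted p = 4.107e-06), close to the 4-fold bound, and missed that bound without A549 replicate 2 (1.98) or BJ replicate 1 (2.00). RT4 was lowest, at 0.75, 0.95 and 0.89 TPM, and did not overlap with any other line (2.17 ± 0.37 under SK-Mel 28, adjusted p = 2.127e-05). U2-OS replicate 3 was again the low library, and without it ALDH3B1 was called higher in U2-OS (1.08, adjusted p = 1.8e-05) where it was not with it (0.70, adjusted p = 0.00788). U2-OS replicate 3 was also lowest in the summed TPM of 153 other genes enriched in A549 (1016, 1011 and 780). These sums were 3.51%, 3.49% and 2.70% of the A549 mean, where the RT4 libraries had 6.92% to 8.33%. That replicate was also lowest of U2-OS for ALDH1L1 (9.77, 8.68 and 4.25 TPM), which is lower in A549, but highest for ALDH1B1 and ALDH3A2. What part this has in the ALDH1A1, ALDH3A1 and ALDH3B1 values was not tested. The paralogue ALDH3B2 shares 5.52% of the 31-base words of the leading ALDH3B1 transcript and had its highest line mean, 3.06 TPM, in RT4.

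ALDH1A1, ALDH3A1, ALDH3A2 and ALDH3B1 were all highest in A549, so the 250 bases upstream of their RefSeq starts (GRCh38.p14) are shown where the table holds them, with ALDH1A3 as a member led by the melanoma lines. Sequences run 5′ to 3′ on the gene's strand, with CpG dinucleotides in capitals. They lie at chr9:72953054-72953303 (minus), chr17:19648501-19648750 (plus), chr11:68010077-68010326 (plus) and chr15:100879581-100879830 (plus).
ALDH1A1: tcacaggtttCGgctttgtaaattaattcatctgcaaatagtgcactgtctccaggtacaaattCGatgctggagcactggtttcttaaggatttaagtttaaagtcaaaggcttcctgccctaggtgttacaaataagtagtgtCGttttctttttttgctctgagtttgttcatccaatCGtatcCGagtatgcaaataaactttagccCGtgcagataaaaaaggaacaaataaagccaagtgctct
ALDH3A2: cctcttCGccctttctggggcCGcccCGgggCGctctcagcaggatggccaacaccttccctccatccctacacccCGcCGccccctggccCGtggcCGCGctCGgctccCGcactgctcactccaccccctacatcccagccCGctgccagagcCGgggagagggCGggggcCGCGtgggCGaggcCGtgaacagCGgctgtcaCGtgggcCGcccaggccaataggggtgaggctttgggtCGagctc
ALDH3B1: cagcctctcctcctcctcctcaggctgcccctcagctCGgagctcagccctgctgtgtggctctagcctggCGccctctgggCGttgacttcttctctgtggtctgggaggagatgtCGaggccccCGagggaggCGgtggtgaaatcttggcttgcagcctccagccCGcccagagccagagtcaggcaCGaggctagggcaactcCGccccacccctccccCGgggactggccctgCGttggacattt
ALDH1A3: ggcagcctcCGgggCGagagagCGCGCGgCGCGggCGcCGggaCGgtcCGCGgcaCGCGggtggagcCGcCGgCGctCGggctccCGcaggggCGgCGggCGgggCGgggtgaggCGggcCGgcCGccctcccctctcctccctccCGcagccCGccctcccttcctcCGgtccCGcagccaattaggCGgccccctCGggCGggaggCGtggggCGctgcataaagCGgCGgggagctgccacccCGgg

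The windows differ in CpG content. ALDH1A1 has 6 CpG in 250 bases and 38.4% GC, ALDH3B1 11 and 66.8%, ALDH3A2 22 and 73.2%, and ALDH1A3 38 and 82.4%, where the median over 35116 RefSeq windows of that length was 11 CpG. The windows of the 3 genes shown that were highest in A549 thus span 6 to 22 CpG, and that of ALDH1B1 has 23. No window was available for ALDH3A1, so it was not searched. The antioxidant response core TGACNNNGC, searched on both strands, was in none of the 4 windows and in 10.9% of all windows. The E-box CACGTG stood at position -47 from the ALDH3A2 start and in 6.34% of all windows, and the core CATGTG was in none of the 4 and in 9.42%. These are letter matches in a short window only.

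Of 20 targets of NRF2, the factor of the electrophile response, with the 10 genes left out, 18 were higher in A549, where 18.4% of all tested genes were, with a median log2 fold change of 2.76 against 0.03 for all tested genes. The glutathione peroxidase GPX2 was at 1669 ± 544 TPM (8.62 ± 0.20), the export pump ABCC2 at 162 ± 28 (6.53 ± 0.14) and ABCC3 at 297 ± 5 (5.38 ± 0.15). AKR1C1 was at 1151 ± 471 TPM (6.51 ± 0.18), in a family whose copies can share reads. This list was chosen with results on A549 from these data known and is not independent evidence of its direction. Of 15 tested fatty aldehyde and sphingolipid genes, 3 were higher and 2 lower in A549 (median 0.70), close to the shares of all tested genes, 18.4% and 10.8%. The higher ones were the fatty acid hydroxylases CYP4F11 (19.5 ± 0.2 TPM, 6.19 ± 0.20), CYP4F12 (12.6 ± 3.2, 5.96 ± 0.25) and CYP4F3 (7.02 ± 0.50, 5.73 ± 0.27), while the kinase SPHK1 was lower at 1.35 ± 0.53 TPM (-2.65 ± 0.29).

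Of the 9 other aldehyde dehydrogenase genes, 5 were higher in HepG2, where 25.8% of all tested genes were called higher. RT4 had 3 higher and 1 lower (18.6% and 14.2%), Caco2 2 higher and 1 lower (19.8% and 13.9%), and SK-Mel 28 1 higher and 2 lower (20.3% and 13.4%). BJ, SK-Mel 24 and U251 each had 1 lower (13.1%, 11.2% and 11.6%). ALDH4A1 (proline breakdown) was at 26.3 ± 14.3 TPM in HepG2 (2.66 ± 0.14), ALDH18A1 (proline synthesis) at 44.99 ± 22.5 (1.43 ± 0.09), ALDH5A1 (succinic semialdehyde) at 8.65 ± 3.43 (1.93 ± 0.13), ALDH16A1 at 9.28 ± 7.07 (1.204 ± 0.31) and ALDH8A1 at 1.14 ± 0.55 (4.57 ± 0.29). By deposited TPM, HepG2 was only at rank 8 for ALDH18A1 and rank 6 for ALDH5A1. Rescaled without mitochondrially encoded genes, it was at 99.2 ± 16.1 TPM of ALDH18A1 (rank 3) and 19.7 ± 2.7 of ALDH5A1 (rank 2). As deposited, ALDH5A1 was at 32.4 TPM in Caco2 and 0.22 in SK-Mel 24, a 145.3-fold range. ALDH7A1 (lysine breakdown, 93.2 to 283 TPM), ALDH9A1 (7.22 to 70.8) and ALDH6A1 (valine breakdown, 3.24 to 20.9) were uncalled in every line. ALDH3B2 was enriched in RT4 at 3.06 TPM, and ALDH8A1 in HepG2.

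The protein-coding genes most like each member were ranked by the Pearson correlation of log2(TPM + 1) over the 9 line means, among 13017 genes with a line mean of at least 5 TPM. With 9 points that share libraries, these are descriptions. The means are of the deposited TPM, lowered in HepG2 by its mitochondrial share, and no ranking without mitochondrially encoded genes was run. PHLDA1 (r = 0.99), FAM189A2 (0.98) and ST6GALNAC2 (0.98) were closest to ALDH1A3, all highest in SK-Mel 24. NECTIN4 (0.99) and SYT9 (0.97) were close to ALDH1L1, both highest in RT4, and AIM2 (0.98), OAS2 (0.96) and CTAGE4 (0.96) to ALDH1A2, also with RT4 highest. BPIFB1 (0.99), RASSF10 (0.99) and KRT20 (0.98) were closest to ALDH3A1, and FADS2 (0.95), PHKB (0.94) and IL15 (0.93) to ALDH3B1. GSR, which encodes glutathione reductase (169 ± 8 TPM in A549), was closest to ALDH3A2 (0.95), ahead of EPB41L4A (0.90) and PTRH2 (0.87). SERPINB9 (0.94), AL163636.2 (0.88) and MT1A (0.88, of a family of near copies) followed ALDH1A1. For ALDH2 they were DOK4 (0.97), SELENBP1 (0.91) and FBH1 (0.88), for ALDH1L2 SIRPA (0.93), GEM (0.92) and EIF2D (0.90), and for ALDH1B1 RMDN2 (0.96), LHPP (0.95) and LRRK1 (0.92). Among the 10 genes themselves the highest correlation was that of ALDH3A1 with ALDH3A2 (0.82), and the lowest that of ALDH1A3 with ALDH2 (-0.80).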

How the data were processed

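The 27 deposited tables hold 1 row per transcript. Per the file headers, the authors give an estimated count, an effective length and a TPM per transcript. TPM was deposited as the authors' software wrote it, per effective length and library total. Kallisto 0.43.1, CASAVA 1.8 and GRCh38 appear in the submitters' processing notes. The sources used here give neither annotation release nor strand setting. Libraries were stranded, per the labels' protocols. Of 176241 transcripts, 159887 matched GENCODE 29 by identifier and were summed to genes; the unmatched held 0.75% to 3.06% of counts.

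Estimated counts were rounded and tested in 1 fit of all libraries with edgeR 4.0.16 in R 4.3.3 (robust quasi-likelihood, TMM factors, filterByExpr), because each line has only 3 libraries. P-values were adjusted by Benjamini-Hochberg over 17220 genes, and for pairs over all genes and 36 pairs. Fold changes are not scaled to transcript length. A line-enriched gene passed all 8 one-sided tests and a 4-fold margin. The fit was tested on simulated data. Replicates were numbered in accession order. Within lines, the median chi-square over genes was at least 5.44 times its expectation. The 10 genes and all lists were chosen with earlier results of these data known. Genes named were all members, the 9 other family genes, from each list up to 4 called genes with the largest change and at least 5 TPM in some line, and for each member the 3 most correlated genes. Some genes that this rule names are not reported here. Alternatives were other factors, DESeq2 1.42.0, no low-count filter, no mitochondrial genes, no HepG2, the number in the sample title as a covariate and each library left out. A transcript length offset, coding transcripts alone and the title number as a block were added after seeing the data. Promoter windows are from RefSeq.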

Additional observations from a re-analysis of the deposited data

How the results depend on the processing

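The 10 genes kept their F test call under every alternative run, and the counts of enriched, higher, lower and pairwise calls stayed within 1.5 times their values, except the enriched count under the replicate block. Leaving out 1 library gave 4 to 5 enriched, 28 to 31 higher calls and 23 to 27 lower calls. The ALDH2 difference of HepG2 over Caco2 turned to -0.46 with the transcript length offset, added after seeing the data. ALDH1B1 in HepG2 over BJ passed with upper-quartile factors (0.57), DESeq2 (0.49) and coding transcripts alone (0.63), and ranged from 0.15 to 0.62 with 1 library left out. The same ranges were 0.52 to 0.66 for ALDH1A3 in SK-Mel 24 over SK-Mel 28 and 0.18 to 0.85 for ALDH1L2 in BJ over SK-Mel 28. The cause was not tested. ALDH1A2 in U251 was not called (adjusted p = 0.0501) but was lower under several alternatives, such as DESeq2 (-1.54, adjusted p = 0.0152). The lower calls of ALDH3A1 in BJ, SK-Mel 24 and SK-Mel 28 were lost without U251 replicate 1, when U251 was at 0 counts. Without mitochondrial genes the summed TPM of the 10 genes was 544 instead of 258.35 in HepG2, 343 in Caco2 and 611 in SK-Mel 28. By the same rescaling, the levels of all 10 genes in HepG2 moved by at least their SD, as did 2 in A549 and 1 in SK-Mel 28. Of the 30 most correlated genes, 20 were shared with a pseudocount of 0.1 and 19 with no filter. The labels give no replicate number shared by the lines, and their number after P has no stated meaning. With it as a replicate block, a fit added after seeing the data, 3 genes were enriched instead of 5, since the margins of ALDH1A1 (1.99) and ALDH3B1 (1.66) in A549 over BJ fell under the 4-fold bound, and the calls of ALDH1A1 in SK-Mel 24 (-1.15, adjusted p = 0.228) and ALDH1B1 in HepG2 (0.96) were lost. Whether the number pairs libraries was not tested. At 15597117 or more counts per library, levels under about 1 TPM can rest on few reads, such as 5 counts over 3 libraries for ALDH3A1 in SK-Mel 28.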
